A study of Mus musculus with 4 samples.

Results

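The genes described here are 8 genes of the aryl hydrocarbon receptor pathway: the receptor gene Ahr, its partner Arnt, its repressors Ahrr and Tiparp, and the induced enzymes Cyp1a1, Cyp1a2, Cyp1b1 and Nqo1. They were chosen by symbol and matched through the Ensembl identifiers of the authors' deposited table, which lists all 8 among 19840 genes. Of the 8, 7 had an adjusted p in that table and count as tested, among 14070 tested genes. Cyp1a2 had too few reads for one. The high position of Cyp1a1 among the differences between the groups was known when the genes were chosen, so all values of that comparison are given as descriptions and support nothing.

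The RNA was that of mouse embryonic stem cells kept naive, the ground state of pluripotency, in 2i/LIF medium. They were of the lines E14TG2a and R1, and the labels tie no library to either line. Lentivirus carried either a control hairpin (shCtrl, 2 libraries) or one that targets Lncenc1, a long noncoding RNA (shLincenc1, 2 libraries), and infected cells were selected with puromycin for 2 days. Per the protocols 2 hairpins were designed for each target, and which one a library carried is not given, nor whether 2 libraries of 1 group stand for 2 cultures, so p-values measure only the spread between these libraries. The table holds 1 comparison and does not name its numerator, so the groups are called by their level of Lncenc1. The target had 6400 and 7250 normalized reads in the Lncenc1-high libraries, called H1 and H2, and 2126 and 2121 in the Lncenc1-low libraries, L1 and L2. If the hairpin lowered its target, L1 and L2 are the shLincenc1 libraries.

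The reads of each library were worked out from the deposited means, and a normalized read count is a read count divided by the library's size factor. The recovered reads summed to 26133014 in H1 and to between 10475350 and 11051743 in H2, L1 and L2. Markers of embryonic stem cells were abundant in every library, with a sum over 8 markers of 77835 to 81425 normalized reads in the Lncenc1-high and of 65738 to 68416 in the Lncenc1-low group, and 0 of the 8 were called different, where 1.53% of all tested genes were. All 8 had a positive log2 fold change. For 7 of them both Lncenc1-high libraries lay above both Lncenc1-low libraries, against 20.6% of tested genes with recovered counts. Library L2 stood apart for several genes below, and where a fold change rests on it the value without it is given too.

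The aryl hydrocarbon receptor is a transcription factor of the bHLH-PAS family that waits in the cytosol, bound to HSP90 and its co-chaperones, until it binds a ligand such as a dioxin, a polycyclic hydrocarbon or a tryptophan metabolite. It then enters the nucleus, pairs with ARNT and binds xenobiotic response elements, whose core letters are GCGTG, near genes for drug-metabolizing enzymes. AHRR, which competes for ARNT, and TIPARP, which ADP-ribosylates the receptor, are induced by it and dampen it. CYP1A1 transcription is low in most cells without a ligand and is the usual readout of receptor activity, while CYP1A2 is mainly a liver enzyme.

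The sequence before the start of the 2 called genes is shown first, with that of Ahrr, which held the most copies of the element core, and of Cyp1a2, the neighbour of Cyp1a1. Each is the 250 bases upstream of the RefSeq start, 5′ to 3′ on the gene's own strand, from GRCm38.p6, another build than the mm9 of the deposited table, and capitals mark the core GCGTG or its reverse complement CACGC. The windows are chr9:57697363-57697612 (plus strand) for Cyp1a1, chr17:79715062-79715311 (minus strand) for Cyp1b1, chr13:74292332-74292581 (minus strand) for Ahrr and chr9:57683656-57683905 (minus strand) for Cyp1a2.
Cyp1a1: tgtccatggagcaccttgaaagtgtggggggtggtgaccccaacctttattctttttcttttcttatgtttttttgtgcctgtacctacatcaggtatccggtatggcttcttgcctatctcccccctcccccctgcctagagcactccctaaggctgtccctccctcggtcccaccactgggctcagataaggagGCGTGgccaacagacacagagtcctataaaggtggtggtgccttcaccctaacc
Cyp1b1: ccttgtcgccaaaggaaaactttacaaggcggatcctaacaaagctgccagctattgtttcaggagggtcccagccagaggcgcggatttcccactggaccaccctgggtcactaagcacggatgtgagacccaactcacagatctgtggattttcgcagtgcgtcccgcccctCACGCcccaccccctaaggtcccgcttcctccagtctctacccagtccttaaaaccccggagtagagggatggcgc
Ahrr: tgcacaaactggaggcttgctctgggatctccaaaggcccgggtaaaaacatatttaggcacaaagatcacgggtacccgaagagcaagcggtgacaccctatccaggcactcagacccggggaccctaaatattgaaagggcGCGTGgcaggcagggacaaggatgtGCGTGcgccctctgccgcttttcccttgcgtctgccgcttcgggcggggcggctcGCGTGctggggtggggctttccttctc
Cyp1a2: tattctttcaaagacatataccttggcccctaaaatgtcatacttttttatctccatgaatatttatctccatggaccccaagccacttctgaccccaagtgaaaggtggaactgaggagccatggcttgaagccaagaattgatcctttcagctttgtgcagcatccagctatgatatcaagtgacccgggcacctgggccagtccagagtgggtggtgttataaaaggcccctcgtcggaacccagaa

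Cyp1a1 held 1 core, starting 54 bases before the start of the gene, Cyp1b1 held 1, at 76 bases, and Ahrr held 3, at 107, 82 and 27 bases. Tiparp held 1 at 170 bases and Arnt 1 at 29 bases, and the windows of Cyp1a2 and Nqo1 held 0. A window was found for 7 of the 8 genes. Of all 32851 RefSeq windows of the same length, 28.2% held at least 1 core and 2.77% held 3 or more, so the single copies at Cyp1a1 and Cyp1b1 were common letters. The same letters are also 1 form of the core of the hypoxia response element. The antioxidant response element TGACNNNGC, through which NRF2 acts on NQO1, was searched on both strands too, and it occurred 2 times in the Arnt window and 0 times in the other 6, against at least once in 10.2% of all windows. These counts describe letters in a short window and do not locate a binding site.

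Cyp1a1 and Cyp1b1 were higher in the Lncenc1-low group, and mostly in 1 of its libraries, while for the receptor and its partner no difference passed the test. Of the 7 tested genes 2 were called at an adjusted p under 0.05 in the authors' deposited table, Cyp1a1 and Cyp1b1, both higher in the Lncenc1-low group. Over all tested genes 1.53% were called, and 1.02% were called in that direction. A refit of the counts, which uses the dispersion implied by each deposited standard error, called 2 of the 7 with all 4 libraries (1.5% of all genes) and 2 with library totals in place of size factors (1.6% of all). Without L2 that refit called 0 of the 7 (0.349% of all). It called 1 without H1 (0.4% of all), 1 without H2 (0.57% of all) and 2 without L1 (1.41% of all). By limma voom 0 of the 7 were called (0.057% of all), and with no filter on low means 1 was called (0.897% of all). At an unadjusted p under 0.05 the authors' deposited table holds 2 of the 7, against 8.82% of all tested genes.

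Cyp1a1, which oxidizes polycyclic hydrocarbons, had 16 reads in H1, 9 in H2, 41 in L1 and 169 in L2, or 8.21, 11.3, 50.5 and 209 normalized reads. Both Lncenc1-low libraries lay above both Lncenc1-high libraries, and L2 lay 4.13-fold above L1. The 95% exact Poisson intervals, which cover counting error only, were 4.69 to 13.3 in H1, 5.16 to 21.4 in H2, 36.3 to 68.5 in L1 and 179 to 243 in L2, so the intervals of L1 and L2 overlapped neither each other nor those of H1 and H2. The group means were 9.75 ± 2.18 (SD, n = 2) and 129.7 ± 112 (SD, n = 2). The authors' deposited table gives Cyp1a1 (ENSMUSG00000032315.5) a log2 fold change, Lncenc1-high minus Lncenc1-low, of -3.76 ± 0.72 (SE), with an adjusted p of 8.33e-05. In the refit Cyp1a1 had -2.40 ± 0.88 (SE) without L2 (adjusted p = 0.427), and it stayed called without H1 (-3.52), H2 (-3.98) or L1 (-4.45). By limma voom its log2 fold change was -3.44 with an adjusted p of 0.341.

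Cyp1b1, a CYP1 enzyme of extrahepatic tissues that also hydroxylates oestrogens, had more than a few reads in L2 alone. It had 7 reads in H1, 0 in H2, 3 in L1 and 77 in L2, or 3.59, 0, 3.70 and 95.2 normalized reads. The 0 in H2 allows up to 3.76 normalized reads at the limit of 3 reads (4.63 by the two-sided Poisson interval), and the intervals of H1, H2 and L1 overlapped, so no difference between these 3 libraries was detectable at this depth. L1 stood above H1 by about 0.1 normalized reads, far inside their counting error. The authors' deposited table gives Cyp1b1 (ENSMUSG00000024087.3) a log2 fold change of -4.56 ± 1.35 (SE) and an adjusted p of 0.0488, just under the threshold. Without L2 the refit gave -0.82 ± 1.79 (SE, adjusted p = 1.00), without H2 -3.78 ± 1.55 (SE, adjusted p = 0.515) and without L1 -5.51 ± 1.59 (SE, adjusted p = 0.0422). Without H1 no value could be fitted, since H2 had 0 reads, and limma voom gave an adjusted p of 0.606.

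Cyp1a2, the enzyme that clears caffeine in liver, had 0 reads in both Lncenc1-high libraries, 1 in L1 and 3 in L2. At the limit of 3 reads a 0 allows up to 1.54 normalized reads in H1 and 3.76 in H2 (1.89 and 4.63 by the two-sided Poisson interval), and the values of L1 and L2 were 1.23 and 3.71. The Lncenc1-low libraries were thus at or under the level that 3 reads give, and no fold is stated. Cyp1a2 and Cyp1a1 are neighbours on opposite strands. The coding genes on their outer sides, Csk and Edc3, had no step from L1 to L2 like that of Cyp1a1. Csk stood at 352 (H1), 331 (H2), 452 (L1) and 407 (L2) normalized reads, higher in both Lncenc1-low libraries (20.7% of all genes). Edc3 stood at 330, 307, 251 and 279, higher in both Lncenc1-high libraries (20.6% of all). In the authors' deposited table the log2 fold changes of Csk and Edc3 were -0.33 ± 0.27 (SE) and 0.26 ± 0.30 (SE), and neither passed. The neighbours of Cyp1b1, Rmdn2 and Atl2, had 0.28 ± 0.51 (SE) and 0.15 ± 0.23 (SE) in the authors' deposited table. Neither of these passed the test.

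Nqo1, a quinone reductase that both the receptor and NRF2 induce, was high in L2 alone. Its normalized reads were 670 in H1, 713 in H2, 617 in L1 and 1415 in L2. L1 was the lowest of the 4 libraries and L2 was 2.29-fold above it, so the groups overlapped. The authors' deposited table gives Nqo1 a log2 fold change of -0.56 ± 0.32 (SE), with an adjusted p of 0.698. Without L2 the sign turned, to 0.16 ± 0.40 (SE, adjusted p = 1.00), and without L1 the value was -1.03 ± 0.40 (SE, adjusted p = 0.222), which did not pass either.

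**Figure D1:**
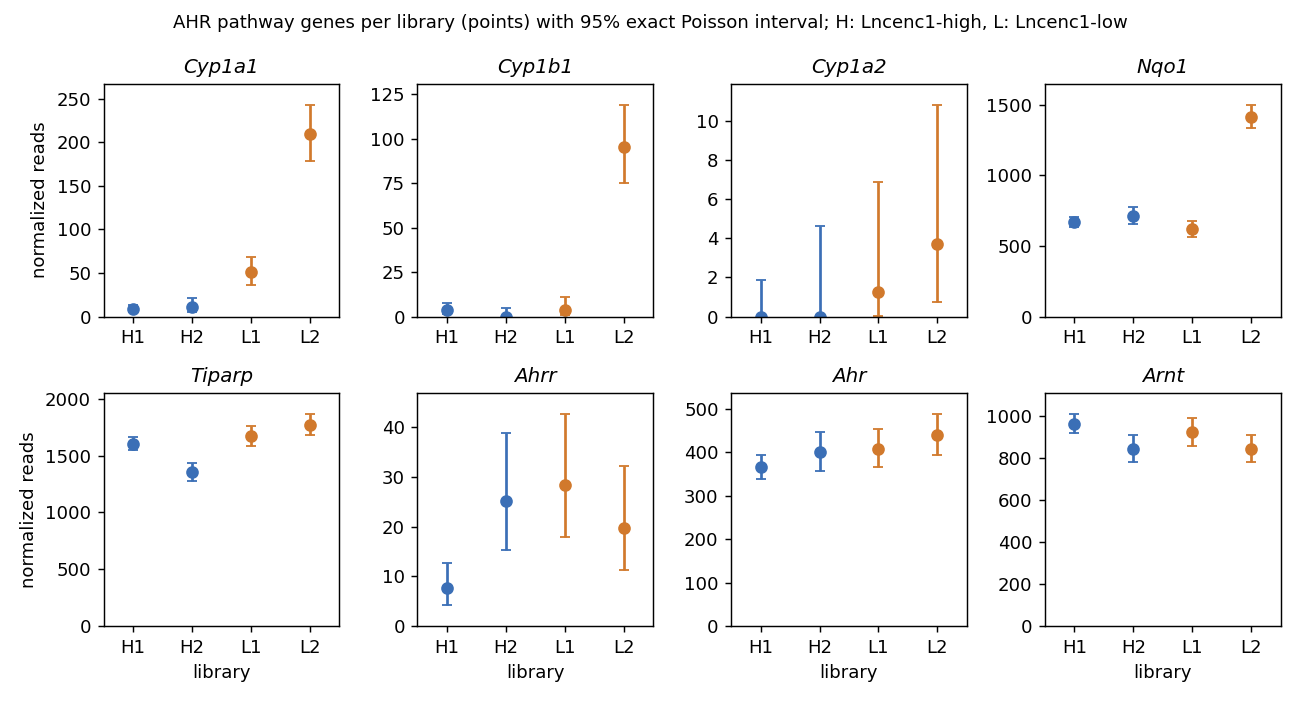
Normalized read counts (vertical axes, each from 0) of the 8 aryl hydrocarbon receptor pathway genes in the 4 libraries (horizontal axis), with 95% exact Poisson intervals as bars. Cyp1a1, Cyp1b1 and Nqo1 were highest in L2, at 209, 95.2 and 1415, while Ahr and Arnt spanned 1.20-fold and 1.14-fold from the lowest to the highest library.

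Neither feedback gene passed the test. Tiparp had 1602 and 1352 normalized reads in H1 and H2 and 1670 and 1767 in L1 and L2, with no overlap of the groups and a span of 1.31-fold over the 4 libraries. The authors' deposited table gives Tiparp a log2 fold change of -0.22 ± 0.21 (SE, adjusted p = 0.949), and the 95% Wald interval from that error runs from -0.62 to 0.19. Ahrr was rare, with 15, 20, 23 and 16 reads in H1, H2, L1 and L2, or 7.70, 25.1, 28.3 and 19.8 normalized reads. H1 was the lowest, and L2, where Cyp1a1 was highest, was below L1 and H2. Its log2 fold change in the authors' deposited table was -0.59 ± 1.01 (SE, adjusted p = 0.995), with a Wald interval from -2.56 to 1.38 that leaves changes of either sign possible, and without H1 it was 0.06 ± 1.23 (SE) in the refit.

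The receptor and its partner varied little over the libraries. Ahr had 365 and 400 normalized reads in H1 and H2 and 408 and 439 in L1 and L2, so the Lncenc1-low group lay above the other by a margin inside the counting error of H2 and L1. The authors' deposited table gives Ahr a log2 fold change of -0.15 ± 0.27 (SE, adjusted p = 0.995), with a Wald interval from -0.68 to 0.38. Arnt, which also serves the hypoxia-inducible factors, had 964 and 846 normalized reads in H1 and H2 and 924 and 844 in L1 and L2, and the groups overlapped. Its log2 fold change in the authors' deposited table was 0.03 ± 0.23 (SE, adjusted p = 0.999), with a Wald interval from -0.41 to 0.48. Both Wald intervals lay within 1 log2 unit of 0.

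**Figure D2:**
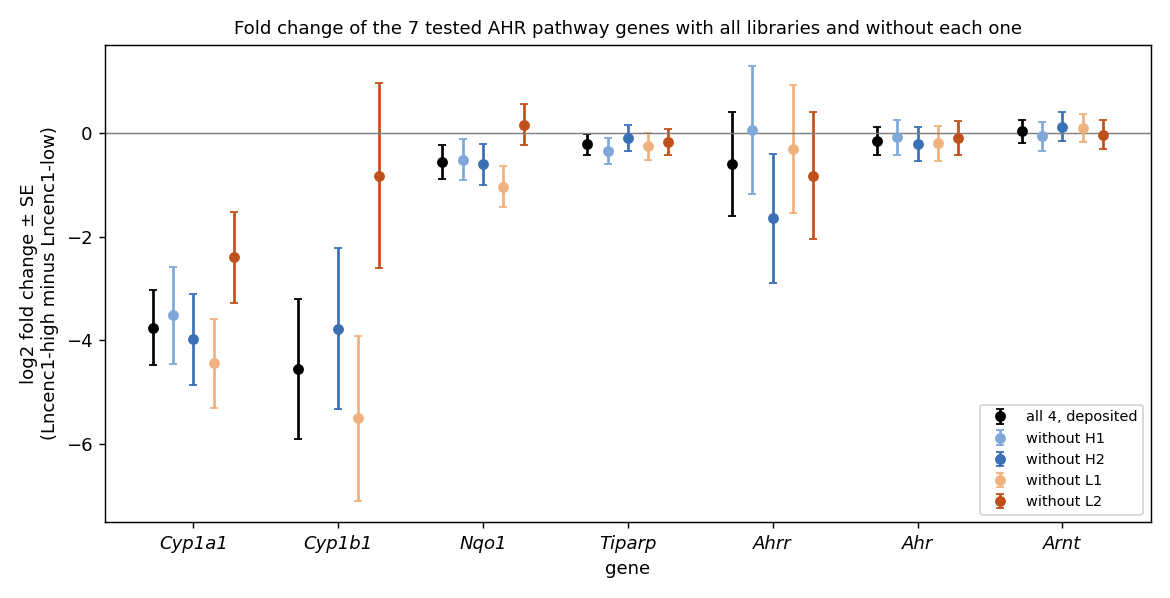
Log2 fold change, Lncenc1-high minus Lncenc1-low (vertical axis), of the 7 tested genes (horizontal axis), as deposited with all 4 libraries and refitted without each library, with the standard error as bars. Without L2, Cyp1a1 moved from -3.76 to -2.40, Cyp1b1 from -4.56 to -0.82 and Nqo1 from -0.56 to 0.16, and for Cyp1b1 no point is drawn without H1, where no value could be fitted.

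The 2 Lncenc1-low libraries differed from each other more for the enzymes than for the regulators. The log2 ratio of L2 over L1 was 4.69 for Cyp1b1, 2.05 for Cyp1a1 and 1.20 for Nqo1, against 0.08 for Tiparp, 0.11 for Ahr, -0.13 for Arnt and -0.52 for Ahrr. Over 13987 tested genes with reads in both libraries the median ratio was 0.00 and the median size of it 0.35, and 8.72% of them were at least 2-fold higher in L2. Among genes with a mean within 2-fold of its own, 2.55% of 2626 had a ratio at least as high as that of Cyp1a1, 0.301% of 2329 as that of Cyp1b1 and 0.990% of 4040 as that of Nqo1. L2 was the highest of the 4 libraries for 5 of the 7 tested genes, and for 31.7% of all. It was at least 2 times the next library for 2 of the 7, Cyp1a1 and Cyp1b1, and for 3.31% of all. These shares describe 2 libraries, and the values of Cyp1a1 were known when the genes were chosen.

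**Figure D3:**
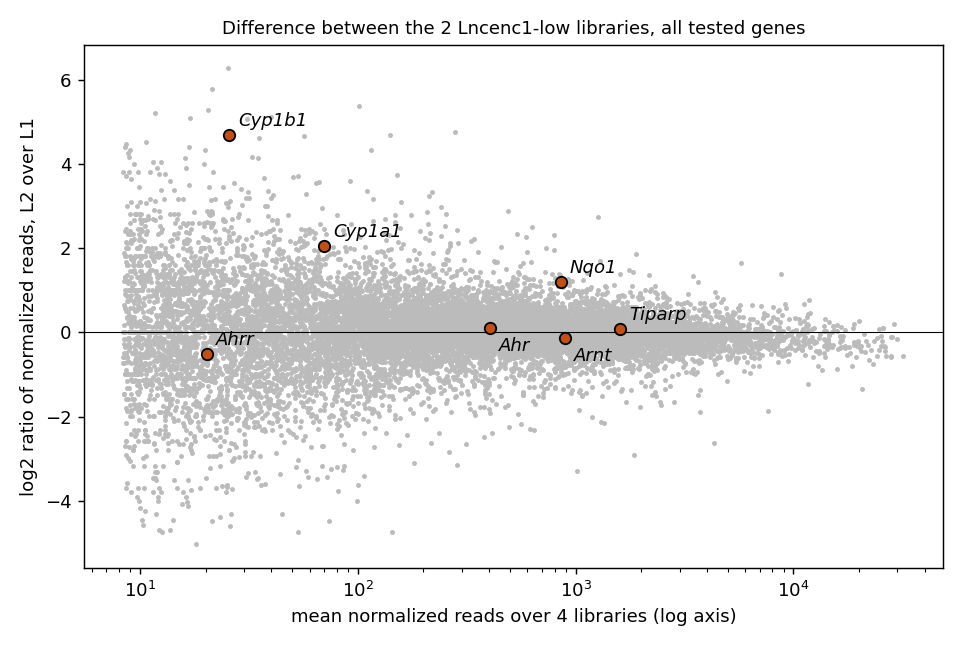
Log2 ratio of normalized reads in L2 over L1 (vertical axis) against the mean over the 4 libraries (horizontal axis, log scale), for 13987 tested genes in grey and the 7 tested pathway genes in orange. Cyp1b1 at 4.69, Cyp1a1 at 2.05 and Nqo1 at 1.20 lie high for their level, with other genes above them, and Ahr, Arnt and Tiparp lie near 0.

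Both Lncenc1-low libraries lay above both Lncenc1-high libraries for Cyp1a1, Cyp1b1, Tiparp and Ahr, 4 of the 7 tested, against 20.7% of 14047 tested genes with recovered counts. In the other direction there were 0 of the 7, against 20.6%. The 4 include Cyp1b1, with 0.1 normalized reads between H1 and L1, and Ahr and Tiparp, whose differences did not pass.

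Per kilobase of exon, which allows levels to be compared between genes, the order of the mean level over the 4 libraries was Nqo1 (550 normalized reads per kilobase), Tiparp (367), Arnt (112), Ahr (65.4), Cyp1a1 (25.02), Cyp1b1 (4.39), Ahrr (2.14) and Cyp1a2 (0.614). Nqo1, at 398 to 911 per kilobase, lay above Tiparp, at 310 to 406, in every library, though their ranges overlapped. The ranges of Cyp1b1, Ahrr and Cyp1a2 overlapped, and that of Cyp1a1 overlapped those of Cyp1b1, Ahrr and Ahr. Arnt, at 105 to 120, lay above Ahr, at 59.2 to 71.2, in every library. Cyp1a1 had 2.95 and 4.05 per kilobase in H1 and H2, 18.1 in L1 and 74.9 in L2, where it exceeded Ahr with 71.2. Nqo1 and Tiparp stood above 90.8% and 85.4% of tested genes in mean level per kilobase, Ahr above 48.1% and Cyp1a1 above 29.7%.

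Other genes known to be induced through the receptor formed a list of 18, of which 14 were in the table and 8 were tested. Of these 8 the authors' deposited table calls 0 (1.53% of all tested genes), with 1 at an unadjusted p under 0.05 (8.82% of all). By limma voom 0 were called (0.057% of all). Beside such shares, 0 calls in a list this short are no result about its genes, here and in the lists below. The median log2 fold change was 0.03 beside -0.01 over all tested genes. The smallest p was that of Ugdh, which makes UDP-glucuronic acid, at -0.55 ± 0.26 (SE) in the authors' deposited table, at 369 (H1), 390 (H2), 543 (L1) and 564 (L2) normalized reads. Slc7a5, the large neutral amino acid transporter, had 0.49 ± 0.30 (SE) in the authors' deposited table and was lowest in L2, at 1013 against 2269 to 2371 in the other libraries, and without L2 the refit gave 0.023 ± 0.37 (SE). Cyp2s1 and Aldh3a1 went opposite ways in L2 and were picked here after their values were seen. Cyp2s1, a CYP enzyme of epithelia, had 125 normalized reads in L2 against 29.6 to 37.6 elsewhere, and its log2 fold change of -1.05 in the authors' deposited table was 0.33 without L2. Aldh3a1, an aldehyde dehydrogenase and classical receptor target, had 7.42 in L2 against 32.9 to 40.1 elsewhere, and its 0.64 in the authors' deposited table was -0.12 without L2.

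No gene for the proteins that hold the receptor in the cytosol or turn it over was called. The DESeq2 test in the authors' deposited table calls 0 of 9 (1.53% of all tested genes), with 0 at an unadjusted p under 0.05 (8.82% of all). By limma voom 0 of the 8 with recovered counts were called (0.057% of all). The list's median log2 fold change was 0.00. Ptges3, the co-chaperone p23, had the smallest p at 0.37 ± 0.21 (SE), and Ddb1, an adaptor of CUL4 ubiquitin ligases, had the smallest in the other direction at -0.20 ± 0.17 (SE), both in the authors' deposited table. Hsp90aa1, the most abundant, had -0.20 ± 0.18 (SE) in the authors' deposited table. For 5 tested genes that make or break down tryptophan-derived ligands the number of calls was 0 by DESeq2 (1.53% of all) and by limma voom (0.057%). The number at an unadjusted p under 0.05 was 0 (8.82% of all), and the median was 0.33. Ido2, an indoleamine dioxygenase, had 91.5 normalized reads in L2 and 3.70 to 25.1 in the other libraries. Its log2 fold change was -1.06 ± 1.03 (SE) by the authors' deposited table and 2.62 ± 1.49 (SE) in the refit without L2, where the sign turned. Kyat3, a kynurenine aminotransferase and the most abundant of them, had 0.33 ± 0.25 (SE) in the authors' deposited table.

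The relatives of Ahr and Arnt, with a PAS domain and partly shared with the coactivators below, came to 12 tested genes. Their number of calls was 0 by DESeq2 (1.53% of all tested genes) and by limma voom (0.057% of all). The number at an unadjusted p under 0.05 was 0 (8.82% of all), and the median was -0.25. Epas1, hypoxia-inducible factor 2 alpha, was high in L2 alone, with 255 normalized reads against 89.1 to 102 elsewhere, and had -0.86 ± 0.50 (SE) in the authors' deposited table and 0.052 ± 0.62 (SE) in the refit without L2. Clock, of the circadian pair, had 0.32 ± 0.22 (SE) and Hif1a, the most abundant, -0.20 ± 0.19 (SE) in the authors' deposited table. Of 11 tested coactivators and corepressors 1 was called (1.53% of all tested genes), Rb1, the retinoblastoma protein, which also binds the receptor. It stood at 115 (H1), 146 (H2), 355 (L1) and 325 (L2) normalized reads, so the groups did not overlap, with a log2 fold change of -1.39 ± 0.33 (SE, adjusted p = 0.00523) in the authors' deposited table. Refitted without each library, its fold change stayed between -1.56 and -1.22, and it remained called without H2 (-1.56). It was not called without H1 (-1.22, adjusted p = 0.26), L1 (-1.33, adjusted p = 0.0653) or L2 (-1.45, adjusted p = 0.0707), where 3 libraries were left. The list's median was -0.13, and its most abundant gene, the corepressor Ncor1, had 0.07 ± 0.18 (SE) in the authors' deposited table.

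Genes that work with CYP enzymes and with NQO1 were compared next. Among 15 tested genes for CYP redox partners and haem supply there were 0 calls by DESeq2 (1.53% of all tested genes) or limma voom (0.057%). At an unadjusted p under 0.05 there were 0 (8.82% of all), with a median of 0.00 and log2 fold changes from -0.32 (Alad) to 0.22. Urod had 0.19 ± 0.25 (SE) and Cyb5b, the most abundant, -0.12 ± 0.27 (SE) in the authors' deposited table. Among 17 tested other CYP and conjugating enzymes there were 0 calls by DESeq2 (1.53% of all tested genes) or limma voom (0.057% of all). At an unadjusted p under 0.05 there were 4 (8.82% of all tested genes), and the median was -0.14. The smallest p was that of Cyp20a1, an orphan CYP, at -0.83 ± 0.25 (SE, adjusted p = 0.0627) in the authors' deposited table, at 374 (H1), 346 (H2), 646 (L1) and 635 (L2) normalized reads. Gsta4, a glutathione transferase, had 0.51 ± 0.21 (SE) in the authors' deposited table.

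Nqo1 in L2 was 1.99-fold above the next library, and among 18 tested NRF2 genes the highest such ratio was 1.18, that of Hmox1, haem oxygenase. There were 0 calls by DESeq2 (1.53% of all tested genes) or limma voom (0.057% of all). At an unadjusted p under 0.05 there was 1 (8.82% of all), Ftl1, a ferritin chain, at 0.37 ± 0.18 (SE) in the authors' deposited table. The median was 0.04, and both Lncenc1-low libraries lay above both others in 0 of the 18 (20.7% of all genes), with the reverse in 5 (20.6% of all). Gclm, of glutathione synthesis, had the smallest p in the other direction at -0.19 ± 0.26 (SE) in the authors' deposited table, with 512 normalized reads in L2 and 467 to 628 elsewhere. Of 14 tested PARP relatives of Tiparp 1 was called (1.53% of all tested genes), Parp12, an interferon-induced mono-ADP-ribosyltransferase, at -1.40 ± 0.37 (SE, adjusted p = 0.0183) in the authors' deposited table. It had 204 and 146 normalized reads in H1 and H2, 308 in L1 and 620 in L2. The refit kept Parp12 without L1 and lost it without H1 (adjusted p = 0.0661), H2 (adjusted p = 0.381) and L2 (-0.81, adjusted p = 1.00). In 3 of the 14 L2 was at least 2 times the next library (3.31% of all genes), Parp12 and, chosen after their values were seen, Parp10 (16.9, 45.2, 25.9 and 140 in H1, H2, L1 and L2) and Parp4 (64.7, 57.7, 44.4 and 182). The list's median was 0.01, and Parp1, its most abundant gene, had -0.18 ± 0.19 (SE) in the authors' deposited table.

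**Figure D4:**
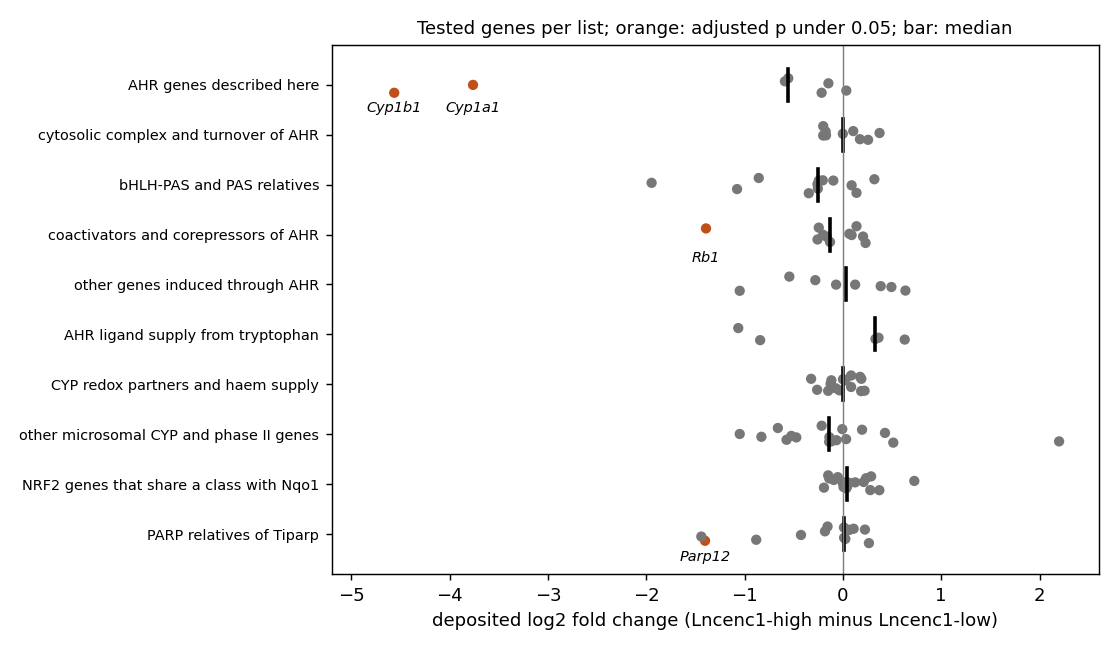
Deposited log2 fold change, Lncenc1-high minus Lncenc1-low (horizontal axis), of every tested gene of the 8 described genes and of the 9 lists (rows), with called genes in orange and the median of each list as a bar. The 4 called genes, Cyp1b1, Cyp1a1, Rb1 and Parp12, lie at -4.56, -3.76, -1.39 and -1.40, and the medians of the 9 lists lie between -0.25 and 0.33.

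The genes nearest to Cyp1a1 in their course over the 4 libraries were looked up among the 10988 genes whose mean reached 50 normalized reads, by the distance between centred profiles of log2(normalized reads + 1). They were Mxd4 (distance 0.70), Fgfbp1 (0.78), Tap1 (0.92), Rhox6 (0.97) and Slc25a24 (1.05). Mxd4, a MYC antagonist, had 34.9, 35.1, 112 and 449 normalized reads in H1, H2, L1 and L2, a step from L1 to L2 close to that of Cyp1a1. Tap1, the antigen peptide transporter, had 39.0, 36.4, 91.2 and 666, and Fgfbp1, a carrier of fibroblast growth factors, had 11.8, 31.4, 76.4 and 473. Slc25a24, a mitochondrial carrier, had 17.97, 15.1, 44.4 and 173. Rhox6, a homeobox gene of placenta, had 78.9 in L1 and 129.8 in L2, against 6.67 and 12.5 in H1 and H2. In the authors' deposited table Mxd4 (-3.00), Rhox6 (-3.51) and Slc25a24 (-2.71) were called among the 5. In the refit without L2, Rhox6 stayed called at -3.11 (adjusted p = 0.0383). Mxd4, at -1.68 (adjusted p = 0.551), and Slc25a24, at -1.42 (adjusted p = 1.00), did not. Likeness over 4 libraries is a description only.

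Markers of other cell types that a culture could hold were summed for each library. In bulk RNA fewer cells of a type and less RNA per cell cannot be told apart. The 7 fibroblast markers present of 10 summed to 228 and 248 normalized reads in the Lncenc1-high group, 425 in L1 and 335 in L2, of which Fbn1, a fibrillin, made up 324 in L1. Without Fbn1, left out after the data were seen, they summed to 108, 118, 101 and 161 in H1, H2, L1 and L2 and were highest in L2, and their part in the CYP1 result was not tested. Postn, Dcn and Lum are not listed. The 7 trophoblast markers present of 8 summed to 754 and 818 in the Lncenc1-high group, 1057 in L1 and 1511 in L2. Krt8, a keratin, made up 577 in L2. Tfap2c, the most abundant, had 594, 299, 810 and 670 in H1, H2, L1 and L2. Without Tfap2c, left out after the data were seen, the sums were 224, 455, 248 and 842. These overlapped between the groups, with H2 above L1. Elf5 is not listed, Gata3 was at 0 in H1 and H2, and Rhox6 was the 1 called. Cdx2, a defining factor of trophoblast, was lower in the Lncenc1-low libraries, at 40.04 and 87.8 in H1 and H2 and 2.46 and 19.8 in L1 and L2, and Eomes and Krt18 overlapped between the groups. The part of these trophoblast markers in the CYP1 result was not tested. The 9 primitive endoderm markers summed to 3293 and 4358 in the Lncenc1-high group, 2580 in L1 and 1170 in L2. Most of each sum was Lama1, a laminin chain. Without Lama1, left out after the data were seen, the sums were 125, 102, 179 and 184 in H1, H2, L1 and L2. These were higher in both Lncenc1-low libraries, where Col4a1 made up 90.0 in L1 and 108 in L2. Gata4 went the other way, at 29.8 and 28.9 in H1 and H2 and 11.1 and 21.0 in L1 and L2. Of the 9 markers 5 were tested, and 2, Lama1 and Gata4, had a positive log2 fold change. The 7 markers of the 2-cell-like state summed to 6498 and 11915 in the Lncenc1-high group, 18240 in L1 and 9945 in L2. Of these 7, 0 had a positive log2 fold change and 0 were called (1.53% of all tested genes). In 3 of them both Lncenc1-low libraries lay above both others (20.7% of all genes). Of 5 hepatocyte markers Apoa1 is the 1 listed, at 0 in H1 and H2 and at 1 read each in L1 and L2.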

How the data were processed

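Total RNA of 4 libraries was depleted of ribosomal RNA and sequenced strand-specifically, per the labels' protocols. The tools the authors list are TopHat2, HTSeq and DESeq2 1.8.2, with the build mm9, per the submitters' processing notes; the annotation and counting strand are not stated there. The deposited table holds 1 comparison. Its mean is a signal, the mean of normalized counts, per the file headers. The authors' log2 fold change and its error, the Wald statistic, a score, and the p-value with its adjusted form are also deposited. Names were matched by Ensembl identifier for 19707 of 19840 genes.

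Counts per library were recovered by a procedure chosen after seeing the data: each deposited mean was split into 4 whole counts times 4 recurring steps, and the split whose refitted fold change matched the deposited one was kept. It gave counts for 19817 genes, with 1 solution for each of the 8. The other 23, with means from 33504 up, hold 13.7% of the summed means. In 99.0% of 14042 tested genes, those with reads in each group, the refit gave the deposited fold change within 0.00001. That match is partly built in, since it served to choose between splits. A simulation returned the right counts for 3908 of 3908 genes, but it left out the highest means for which counts were recovered. Size factors were 1.95, 0.797, 0.811 and 0.809 for H1, H2, L1 and L2.

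The main test is the Wald test of DESeq2 by the authors, called at an adjusted p under 0.05. Alternatives were a negative binomial Wald refit (all libraries, without each, or with library totals), limma voom (limma 3.58.1, R 4.3.3) and no filter; the refit and limma voom were tried on simulated data. Fits without 1 library keep the dispersions of all 4, which assumes that the lone library varies as the rest do. These dispersions include the spread of the library left out. A call lost in such a fit may rest on that spread or on the smaller number of libraries, which was not tested. Exon lengths are from GENCODE. Named were the 8 genes, the called genes of 9 lists or else the smallest p in each direction, each list's most abundant gene, and the 5 genes nearest to Cyp1a1. Cyp2s1, Aldh3a1, Hmox1, Afmid, Parp10 and Parp4 were named after their values were seen. Members and lists were chosen with earlier results of these data known.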

Additional observations from a re-analysis of the deposited data

How the results depend on the processing

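No paired analysis was possible because the deposited table has no column per library and the recovered libraries carry no replicate number. The count of 2 called pathway genes fell to 1 with no filter on low means, where Cyp1b1 was lost (-4.56, adjusted p = 0.0688), and to 0 by limma voom, where Cyp1a1 had -3.44 and Cyp1b1 -3.48. Without each library in turn the count ran from 0 to 2. Over these fits Cyp1a1 ran from -4.45 to -2.40 and Cyp1b1 from -5.51 to -0.82. Nqo1 ran from -1.03 to 0.16, Ahrr from -1.64 to 0.061 and Arnt from -0.064 to 0.12. These changed sign, Nqo1 without L2, Ahrr without H1 and Arnt without H1 or L2 (-0.029). The cause was not tested. Cyp1b1 had no value without H1, since H2 had 0 reads. Among the 9 lists the count for coactivators (1) ran from 0 to 1 without each library and was 0 by limma voom; that for PARP relatives (1) ran from 0 to 1 and was 0 by limma voom; and that for other CYP and conjugating enzymes (0) was 1 with library totals, from Cyp20a1 (adjusted p = 0.0487). The other 63 combinations of list and setting kept their count. Without L2 the level of the Lncenc1-low group went from 129.7 to 50.5 normalized reads for Cyp1a1 and from 49.4 to 3.70 for Cyp1b1; with 2 libraries a group, the SD is no measure of such a move. With a pseudocount of 5 in place of 1, 4 of the 5 genes nearest to Cyp1a1 were shared. The longer motif TTGCGTG was in 0.925% of windows, against 28.2% for GCGTG, and in 0 of the 7 windows found for the described genes. Over all genes the number of calls was 215 in the authors' deposited table, 8 by limma voom, 178 with no filter, and 56, 80, 197 and 49 in the refit without H1, H2, L1 and L2. Depth limits Cyp1a2, Cyp1b1 and Ahrr most, with 4, 87 and 74 reads in all.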
